A study of Mus musculus with 3 samples.

Results

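Ba/F3 is a mouse haematopoietic cell line that needs interleukin-3 (IL-3) to grow. The genes described here encode surface or secreted ligands that lymphocytes and natural killer (NK) cells read through inhibitory or costimulatory receptors. They were chosen by name: 34 genes of the B7, galectin, nectin and tumour necrosis factor (TNF) ligand families, with the CD200, CEACAM and fibrinogen-like ligands, TGF-β1 and the adenosine-forming ectonucleotidases. Of these, 33 were among the 55211 genes joined over the cultures. Cd58 was not analysed here. Mice carry no Cd58 gene, and CD48 serves as the CD2 ligand in mice. The samples were 3 separately grown cultures of Ba/F3, all kept in RPMI with fetal calf serum, penicillin-streptomycin and recombinant murine IL-3. They form 1 group of a single line, with no untreated, cytokine-starved or interferon-treated arm, so the data give levels and the spread between cultures and no response. The series concerns the inositol phosphate kinase ITPK1 and the killing of tumour cells by neutrophils with IgA antibodies.

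Checkpoint ligands often act in trans, on receptors of other cells. PD-L1 and PD-L2 engage the inhibitory receptor PD-1 on T cells, and CD80 and CD86 engage CD28, which costimulates, and CTLA-4, which restrains. Nectins and the poliovirus receptor are adhesion proteins that the activating receptor DNAM-1 and the inhibitory receptor TIGIT share as ligands, while galectins bridge sugars on many glycoproteins. Haematopoietic tumour cells often carry such ligands.

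The libraries of cultures 1, 2 and 3 held 32044889, 33880292 and 37180883 gene reads. Levels between cultures are given as CPM, the reads of a gene per 1000000 reads of its culture. Levels of different genes are given as TPM, reads per length of merged exons scaled to the same total in each culture. A gene was called detected at 1 CPM or more in all 3 cultures, and a count of 0 allows levels of up to 0.0936, 0.0885 and 0.0807 CPM in cultures 1, 2 and 3 (3 reads, counting error only). Both IL-3 receptor genes were detected, Csf2rb at 721 ± 21.7 CPM and Il3ra at 31.4 ± 6.37 CPM (SD, n = 3). Of 7 B lymphoid markers 2 were detected, and Igll1 and Ebf1 had no read. The granulocyte and monocyte markers were detected for 5 of 6 genes. Markers of possible other cells were mostly undetected. Detected were 0 of 6 T and NK cell genes (summed levels of 0.0590 to 0.187 CPM). Also undetected were all 3 fibroblast genes (0.767 to 0.999 CPM) and all 3 endothelial genes (0.156 to 0.242 CPM). The fibroblast gene Col1a1 lay just under the threshold, at 0.967, 0.738 and 0.914 CPM. Of 4 macrophage genes 1 was detected, Adgre1 at 25.8 ± 1.57 CPM, the 47.1 percentile of detected genes per length. Of 5 dendritic cell genes 1 was detected, Itgax at 23.4 ± 0.704 CPM, the 32.1 percentile. In bulk RNA, fewer cells expressing a gene and less RNA per cell cannot be told apart.

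Ba/F3 cells transcribed a wide but uneven set of these ligands. Of the 33 genes measured, 19 were detected, beside 19.9% of all joined genes and 45.9% of protein-coding genes. The detected set held all 4 listed galectins, 6 of 9 genes of the B7 family and HVEM, and 3 of 6 TNF ligands. It also held 2 of 6 nectins and relatives, 3 of 5 other ligands, and Tgfb1 of the group with the ectonucleotidases. The other 14 were below 1 CPM in every culture. No read was found for 5 of them (Cd86, Nectin1, Cadm1, Cd70 and Tnfsf8), and 7 more had 1 to 8 reads over all cultures together. The threshold itself largely sets the 2 groups apart, so their separation is not a result. The lowest value of a detected gene in any culture was 2.27 CPM (Ceacam1). The highest of an undetected gene was 0.874 CPM (Nectin2, which passes a threshold of 0.5 CPM). Summed over the genes, the ligands took 2630, 2710 and 2674 CPM in cultures 1, 2 and 3, of which Lgals1 alone made up between 66.7% and 67.6%.

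**Figure D1:**
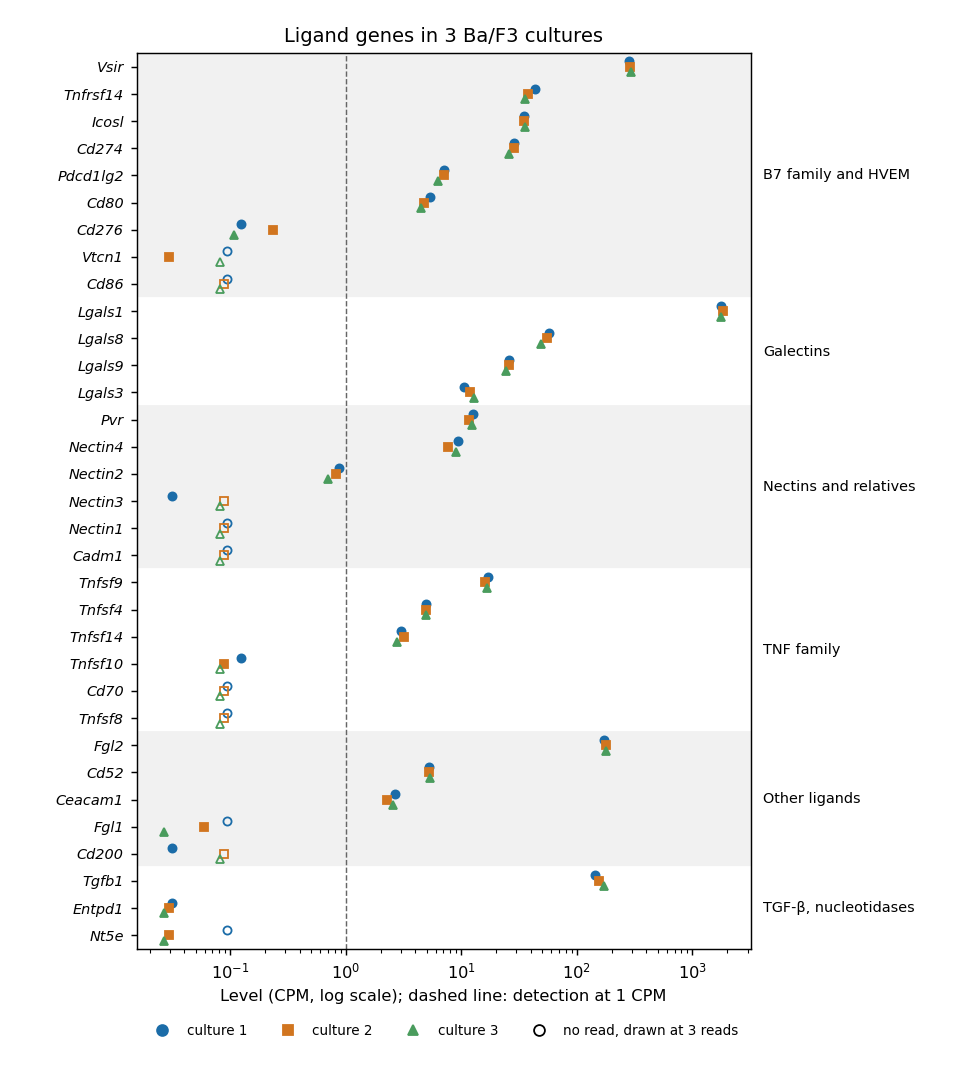
Level of each ligand gene in CPM (log axis) in the 3 Ba/F3 cultures, grouped by family; open symbols mark a gene without a read in that culture, drawn at the level of 3 reads. The 19 detected genes lie right of the dashed line at 1 CPM in every culture, and Nectin2 lies nearest to it on the left.

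The promoters printed here are examples of how CG content and transcript level were combined among these genes. The windows run from 250 bases before to 50 bases after the RefSeq start (GRCm38.p6) and are written 5′ to 3′ on the gene's strand, with each CG dinucleotide in capitals. Vsir (chr10:60346601-60346900, plus strand), Cd274 (chr19:29367188-29367487, plus strand), Tgfb1 (chr7:25686752-25687051, plus strand) and Tnfrsf14 (chr4:154928028-154928327, minus strand) are shown because they were detected. Nt5e (chr9:88327359-88327658, plus strand) and Nectin3 (chr16:46496918-46497217, minus strand) are shown because their CG-rich windows belong to genes with almost no reads.
Vsir: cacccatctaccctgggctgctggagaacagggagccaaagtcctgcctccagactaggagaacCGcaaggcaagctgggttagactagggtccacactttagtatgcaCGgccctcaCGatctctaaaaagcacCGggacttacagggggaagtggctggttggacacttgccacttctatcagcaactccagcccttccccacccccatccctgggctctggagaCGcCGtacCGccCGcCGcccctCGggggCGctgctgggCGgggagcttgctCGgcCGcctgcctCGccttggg
Cd274: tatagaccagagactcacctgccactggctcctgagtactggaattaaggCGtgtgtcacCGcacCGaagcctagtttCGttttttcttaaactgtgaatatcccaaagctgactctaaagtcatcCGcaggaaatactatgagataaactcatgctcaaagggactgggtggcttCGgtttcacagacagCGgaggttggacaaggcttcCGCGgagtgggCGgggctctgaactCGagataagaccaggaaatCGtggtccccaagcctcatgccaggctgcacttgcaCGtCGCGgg
Tgfb1: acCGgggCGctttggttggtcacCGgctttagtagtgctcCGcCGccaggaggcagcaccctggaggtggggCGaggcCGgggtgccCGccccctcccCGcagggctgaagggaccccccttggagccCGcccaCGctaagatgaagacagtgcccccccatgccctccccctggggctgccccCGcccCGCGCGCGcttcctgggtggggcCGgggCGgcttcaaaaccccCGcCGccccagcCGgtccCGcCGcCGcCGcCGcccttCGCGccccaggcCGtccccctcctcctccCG
Tnfrsf14: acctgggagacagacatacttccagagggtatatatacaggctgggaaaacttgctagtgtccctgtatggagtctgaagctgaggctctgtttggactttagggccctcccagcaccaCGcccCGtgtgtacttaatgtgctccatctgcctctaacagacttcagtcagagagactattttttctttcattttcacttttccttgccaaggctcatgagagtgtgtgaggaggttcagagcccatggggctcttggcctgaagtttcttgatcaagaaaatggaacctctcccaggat
Nt5e: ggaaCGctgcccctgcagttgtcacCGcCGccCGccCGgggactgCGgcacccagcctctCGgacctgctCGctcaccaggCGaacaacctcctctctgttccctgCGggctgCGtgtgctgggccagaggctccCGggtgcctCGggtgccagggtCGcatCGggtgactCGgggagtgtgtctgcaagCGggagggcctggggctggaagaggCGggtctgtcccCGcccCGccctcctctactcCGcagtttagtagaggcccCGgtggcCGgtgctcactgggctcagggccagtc
Nectin3: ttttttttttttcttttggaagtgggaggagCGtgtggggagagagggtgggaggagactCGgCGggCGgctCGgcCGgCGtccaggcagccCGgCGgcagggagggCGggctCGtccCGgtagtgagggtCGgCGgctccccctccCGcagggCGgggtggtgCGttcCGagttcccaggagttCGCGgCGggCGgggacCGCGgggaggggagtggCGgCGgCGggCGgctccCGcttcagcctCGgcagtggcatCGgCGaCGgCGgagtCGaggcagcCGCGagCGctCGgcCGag
The Tnfrsf14 window holds 2 CG dinucleotides and 48.7% G or C, at a gene level of 94.6 TPM. The Nectin3 window holds 40 and the Nt5e window 23, at levels of 0.00285 and 0.00760 TPM. Vsir and Cd274 have 15 each and Tgfb1 has 30. RefSeq windows were matched for 14 detected ligand genes, with a median of 6.5 CG dinucleotides (range 2 to 30), and for 9 undetected ones, with a median of 15 over 10 windows (range 5 to 40). Over protein-coding genes, detected ones had a median of 21 and undetected ones a median of 5. In these few ligand genes the order of the medians was the opposite. Windows lying wholly inside the gene as annotated in GENCODE M21 include those of Tnfrsf14, Lgals3, Lgals8 and Cd80, which were detected. They also include those of Nt5e, Nectin3, Nectin2 and Cd276, which were not. Lgals1 had no matched window. Whether the windows hold the starts used in Ba/F3 was not tested. Motifs were searched on both strands. The STAT element TTCNNNGAA was in 1 of the 14 windows of detected genes (Fgl2) and in none of the 10 others, beside 8.30% of all 32851 windows, 6.95% of windows of detected protein-coding genes and 8.57% of those of undetected ones. The TATA box TATAAA was in 1 of 14 (Cd80) and 0 of 10, beside 13.6% of all windows, 6.37% for detected and 18.3% for undetected protein-coding genes. The GC box GGGCGG, which can overlap CG dinucleotides, was in 6 of 14 and 5 of 10, beside 35.7% of all windows, 63.6% for detected and 31.0% for undetected protein-coding genes. The PU.1 core GAGGAAGT was in none of them, beside 3.20% of all windows, 3.31% for detected and 2.90% for undetected protein-coding genes.

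The B7 family was led by Vsir, which encodes VISTA, an inhibitory ligand of T cells on myeloid cells. Vsir (chromosome 10, 60346851 to 60372684, plus strand) reached 279.8, 286 and 294 CPM in cultures 1, 2 and 3, or 199 ± 4.12 TPM (SD, n = 3), the 92.9 percentile of detected genes. Culture 3 was highest and culture 1 lowest, with a ratio of 1.05. Per length, the Vsir level was 7.52 ± 0.160 times that of Icosl and 7.55 ± 0.645 times that of Cd274. With the longest transcript as the length, the ratio to Icosl was 4.74 ± 0.101.

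Icosl, whose protein binds the costimulatory receptor ICOS, stood at 35.1, 34.9 and 35.4 CPM, or 26.5 ± 0.0616 TPM. Cd274, the PD-L1 gene (chromosome 19, 29367455 to 29388095, plus strand), reached 28.5, 28.4 and 25.6 CPM, or 26.4 ± 1.72 TPM. The per-length levels of Icosl and Cd274 overlapped between cultures, and both lay near the middle of detected genes (45.5 and 45.4 percentile). Pdcd1lg2, the PD-L2 gene, stood at 7.12, 7.08 and 6.24 CPM, or 12.1 ± 0.951 TPM. Pdcd1lg2 begins 22.8 kb beyond the end of Cd274 on chromosome 19 with no protein-coding gene between them. The per-length ratio of Cd274 to Pdcd1lg2 was 2.17, 2.17 and 2.22 in the 3 cultures. Both were lowest in culture 3, as were 39.1% of detected genes. Neither passed a chi-square test for differences between cultures (adjusted p = 0.0845 for Cd274 and 0.432 for Pdcd1lg2). Cd80 stood at 5.34, 4.72 and 4.49 CPM, or 4.56 ± 0.425 TPM, the 8.83 percentile.

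Cd86, the other CD28 ligand gene, had no read in any culture, so CD80 was the B7 ligand of CD28 and CTLA-4 with transcripts here. Cd276, which encodes B7-H3, had 4, 8 and 4 reads (0.156 ± 0.0698 CPM), and Vtcn1, which encodes B7-H4, had 0, 1 and 0. Tnfrsf14 encodes HVEM, a TNF receptor that also acts as the ligand of the inhibitory receptor BTLA. Tnfrsf14 (chromosome 4, 154921933 to 154928563, minus strand) stood at 43.6, 37.9 and 35.7 CPM, or 94.6 ± 10.2 TPM, the 82.5 percentile. Culture 1 was above both others, 1.18 times their mean.

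PD-L1 transcription is known to respond to interferon-γ through JAK kinases, and CMTM6 is known to hold PD-L1 at the surface. Of 11 genes listed as Cd274 regulators, 10 were detected, beside 45.9% of protein-coding genes. Of these 10, 6 differed between cultures beyond counting noise by a chi-square test that 37.1% of all detected genes passed. Jak1 stood at 776 ± 17.4, Myc at 394 ± 9.67 and Jak2 at 236 ± 8.82 CPM, and Cmtm4, a relative of Cmtm6, had no read. Cmtm6, named for its role after its values were seen, stood at 109 ± 4.54 CPM. In TPM, Jak2 was at 163 ± 7.11 and Cd274, which lies 54.4 kb downstream on the same strand, at 26.4 ± 1.72.

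Galectins were the one family with every listed member detected. Of galectin genes outside the list, Lgals4 was detected, at 2.996, 1.446 and 1.264 CPM. Lgals2 had 0, 3 and 3 reads, Lgals7 had 1, 0 and 0, and Lgals12 had 0, 0 and 1. Lgals1 encodes galectin-1, a secreted lectin known to induce death of activated T cells. Lgals1 (chromosome 15, 78926725 to 78930465, plus strand) reached 1764, 1833 and 1784 CPM, or 6913 ± 163 TPM, the 99.9 percentile of detected genes. Culture 2 was above both others, by 1.03 times their mean. Lgals8, a tandem-repeat galectin, followed at 57.8, 55.0 and 48.9 CPM (50.9 ± 4.55 TPM), lowest in culture 3. Lgals9, whose protein binds TIM-3, stood at 25.8, 25.6 and 24.1 CPM (41.0 ± 1.76 TPM). Lgals3, whose protein has a single lectin domain on a long tail, stood at 10.61, 11.98 and 12.96 CPM (22.2 ± 2.12 TPM), lowest in culture 1. Per length, Lgals1 was 137 ± 12.2 times Lgals8, 169 ± 6.75 times Lgals9 and 313 ± 29.5 times Lgals3.

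Nectins and their relatives were mostly undetected. Pvr, the poliovirus receptor gene and a shared ligand of DNAM-1, TIGIT and CD96, stood at 12.7, 11.6 and 12.3 CPM, or 6.93 ± 0.295 TPM. Nectin4, named as a TIGIT ligand in human cells, stood at 9.36, 7.59 and 8.96 CPM, or 8.02 ± 0.843 TPM. The per-length ranges of Pvr and Nectin4 overlapped, and with the longest transcript as the length Pvr stood higher, at 10.8 TPM against 6.13 for Nectin4. Nectin2, a ligand of DNAM-1 and of the inhibitory receptor PVRIG, had 28, 28 and 26 reads, or 0.874, 0.826 and 0.699 CPM, below the threshold in each culture. On chromosome 7, Nectin2 and Pvr are 153 kb apart with 6 protein-coding genes between them, of which 1 was detected. Nectin1 and Cadm1, whose product is the ligand of CRTAM on activated T and NK cells, had no read, and Nectin3 had 1 read in culture 1.

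Among TNF ligands, 3 were detected and 3 were not, and the split ran through a single gene cluster. Tnfsf9, whose product is the ligand of the costimulatory receptor CD137, stood at 16.9, 15.9 and 16.5 CPM, or 44.4 ± 1.25 TPM. Tnfsf14, which encodes LIGHT, stood at 3.03, 3.22 and 2.80 CPM, or 5.68 ± 0.431 TPM. Cd70, the CD27 ligand gene, had no read. On chromosome 17, Cd70 (57145997 to 57149777, minus strand) lies 38.2 kb from Tnfsf9 and 39.7 kb from Tnfsf14, with no other protein-coding gene in either interval, so a gene without a read sat between 2 detected ones. Tnfsf4, which encodes the ligand of OX40, stood at 4.96, 4.93 and 4.98 CPM, or 9.36 ± 0.0295 TPM, and its cultures differed least of the detected ligands (highest over lowest 1.01). Tnfsf8, the CD30 ligand gene, had no read, and Tnfsf10, which encodes the death ligand TRAIL, had 4, 3 and 0 reads.

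Of the other ligands, Fgl2 was abundant. It encodes fibrinogen-like protein 2, which in mice binds the inhibitory Fc receptor FcγRIIB. Fgl2 (chromosome 5, 21372642 to 21378374, plus strand) reached 173, 178 and 178 CPM, or 162 ± 2.44 TPM, the 90.9 percentile, and its per-length level was 0.813 ± 0.0124 of that of Vsir. Fgl1, which encodes a LAG-3 ligand, had 0, 2 and 1 reads. Cd52, a small glycoprotein gene of lymphocytes whose soluble product binds Siglec-10 in humans, stood at 5.21, 5.25 and 5.35 CPM, or 15.5 ± 0.137 TPM. With the longest transcript as its length, Cd52 came to 26.5 TPM. Ceacam1, a homophilic adhesion gene, stood at 2.65, 2.27 and 2.58 CPM, or 1.4997 ± 0.1165 TPM, the lowest of the detected ligands. Its near-identical neighbour Ceacam2 had 1, 4 and 1 reads, so the split of reads between them is uncertain. Cd200, whose product restrains myeloid cells, had 1 read in culture 1.

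Tgfb1, which encodes the latent cytokine TGF-β1 (chromosome 7, 25687002 to 25705077, plus strand), reached 144, 155 and 171 CPM, or 108 ± 8.87 TPM, the 85.1 percentile. Every culture was apart from the others, and culture 3 was 1.14 times the mean of the others. TGF-β1 is cut by furin and kept latent by carrier proteins until integrins release it. Of 11 such genes, 5 were detected (45.9% of protein-coding genes were) and 4 of these differed between cultures, beside 37.1% of detected genes. Furin stood at 287, 291 and 329 CPM, Nrros, a carrier of myeloid cells, at 166, 162 and 174, and the integrin chain gene Itgav at 132, 140.3 and 134. Furin and Tgfb1 were both highest in culture 3, as were 32.0% of the detected genes that differed between cultures. The integrin chain genes Itgb6 and Itgb8, partners of Itgav in releasing TGF-β, had 0 reads in every culture and 1, 1 and 4 reads.

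The ectonucleotidases CD39 and CD73 turn extracellular ATP into adenosine, which restrains T and NK cells. Entpd1, the CD39 gene, had 1 read in each culture, and Nt5e, the CD73 gene, had 0, 1 and 1. Of 10 other adenosine genes, 5 were detected, beside 45.9% of protein-coding genes. Of these 5, 1 differed between cultures, beside 37.1% of detected genes. Adk, the adenosine kinase gene, stood at 50.5 ± 2.09, Ada, the adenosine deaminase gene, at 20.5 ± 0.419 and the receptor gene Adora2a at 17.3 ± 1.47 CPM. Adora1 had no read and Adora2b stood at 0.560 ± 0.0506 CPM, below the threshold.

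Partner receptors were looked up in the same cultures. Of 26 listed receptor genes, 11 were detected, beside 45.9% of protein-coding genes. They were led by Selplg, which encodes PSGL-1, a receptor of VISTA, at 124 ± 7.62 CPM. Tgfbr2 followed at 93.2 ± 3.64 and Tnfrsf9, the CD137 gene, at 60.5 ± 1.72 CPM. Btla had no read and Cd160 had 3, 4 and 6. Of 29 listed ligand and receptor pairs, both genes were detected in 8, the ligand alone in 11, the receptor alone in 3 and neither in 7. The list is not complete and leaves out, for example, Tnfsf14 with Tnfrsf14, both detected. These counts describe the list alone, and no share over other pairs was measured. The per-length level of the ligand was above that of the receptor for Vsir over Selplg (1.97 ± 0.0812 times) and Fgl2 over Fcgr2b (5.81 ± 0.277 times). It was also above for Cd274 over Pdcd1 (9.25 ± 1.15 times) and Pdcd1lg2 over Pdcd1 (4.23 ± 0.578 times). Pdcd1 itself was near the threshold, at 1.47, 1.62 and 1.69 CPM. For Tgfb1 the level of the ligand was above that of Tgfbr1 (4.85 ± 0.370 times) and Tgfbr2 (2.72 ± 0.144 times). The level of the ligand was below that of the receptor for Tnfsf9 over Tnfrsf9 (0.574 ± 0.0302 times) and Tnfsf14 over Ltbr (0.0786 ± 0.00691 times). The receptors of Cd80 and Icosl (Cd28, Ctla4 and Icos) had no read, and Tigit, at 1.15, 0.945 and 0.968 CPM, was above the threshold in culture 1 alone.

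**Figure D2:**
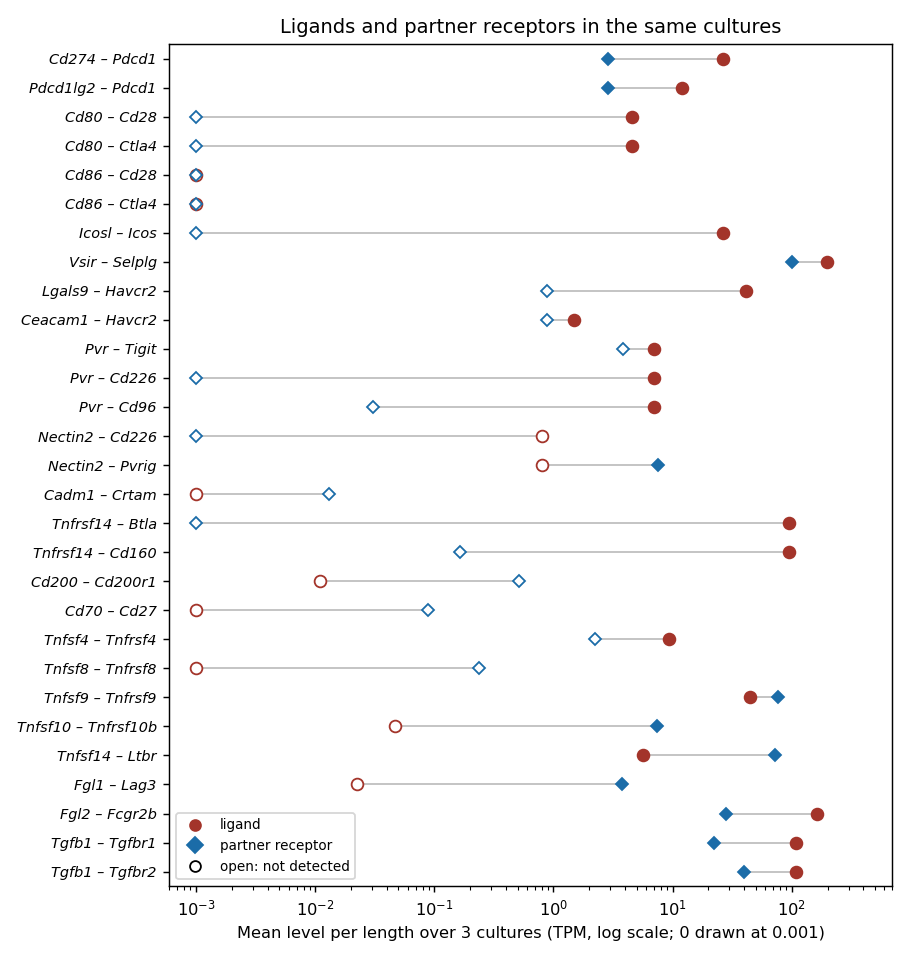
Mean level per length (TPM, log axis) of each ligand gene (circles) and a known partner receptor gene (diamonds) over the 3 Ba/F3 cultures; open symbols were not detected and values of 0 are drawn at 0.001. Both symbols are filled in 8 of 29 listed pairs, and in 11 the ligand alone is filled.

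Detected ligand genes were spread from the 1.956 to the 99.9 percentile of detected genes per length. Their median level was 26.4 TPM, beside 30.1 TPM over all detected genes, and 8 of 19 were above that median. Lgals1, Vsir, Fgl2, Tgfb1 and Tnfrsf14 were the highest, and Pvr, Tnfsf14, Cd80 and Ceacam1 the lowest. Of 18 neighbouring pairs in this order, 3 had ranges that overlapped between cultures: Tgfb1 with Tnfrsf14, Icosl with Cd274, and Nectin4 with Pvr. The order depends on the length used. By the longest transcript, Tgfb1 (157 TPM) stood above Vsir (153 TPM) and Fgl2 (120.1 TPM). Parts of the exons of Tnfsf9 (14.9%), Cd52 (14.5%), Cd274 (14.1%), Cd276 (11.4%), Lgals8 (4.20%) and Nectin2 (3.86%) overlap exons on the other strand, so their levels are uncertain if the counting did not use strand, which is not given in the sources used here.

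**Figure D3:**
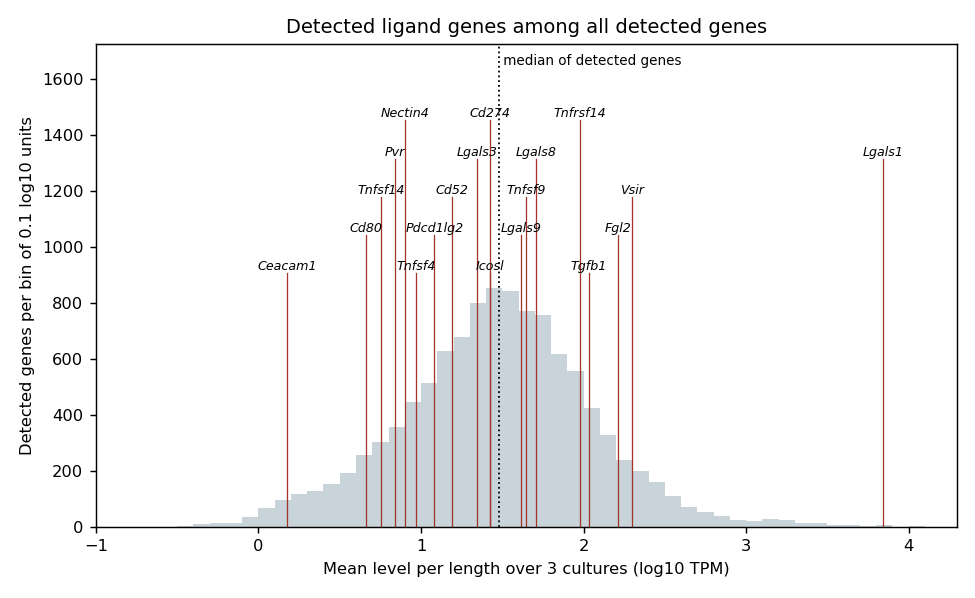
Mean level per length (log10 TPM) of the 19 detected ligand genes (red lines) over the histogram of all 10991 detected genes (grey). The median of detected genes is 30.1 TPM, Lgals1 at 6913 TPM lies far to the right, and Ceacam1 at 1.4997 TPM lies near the left edge.

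Cultures differed beyond counting noise in 5 of the 20 ligand genes with enough reads to test, beside 32.8% of all genes tested. All 5 are among the 19 detected genes, where the background was 37.1%. The chi-square test of Poisson heterogeneity, adjusted by Benjamini-Hochberg over 13141 genes, compares these libraries and not conditions. By this chi-square test Tgfb1 passed with a ratio of highest to lowest culture of 1.19 (adjusted p = 3.3e-17), Lgals1 with 1.04 (adjusted p = 6.9e-10) and Tnfrsf14 with 1.22 (adjusted p = 4.7e-06). By the same chi-square test Lgals8 passed with 1.18 (adjusted p = 1.1e-05) and Vsir with 1.05 (adjusted p = 0.00852). Of the 5 calls, only that of Tgfb1 held when each culture was left out in turn (chi-square adjusted p of at most 0.00125). The chi-square call ended for Tnfrsf14 without culture 1 (adjusted p = 0.385), for Lgals1 without culture 2 (0.126), for Lgals8 without culture 3 (0.323) and for Vsir without culture 1 (0.240) or culture 3 (0.291).

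The direction was not shared: Tnfrsf14 and Lgals8 were highest in culture 1, Lgals1 in culture 2, and Tgfb1 and Vsir in culture 3. Of all detected genes that differed, 48.8%, 19.2% and 32.0% were highest in cultures 1, 2 and 3. The remaining tested genes, among them Cd274 (chi-square adjusted p = 0.0845), Lgals3 (0.0542) and Nectin4 (0.0912), did not pass, which does not show that they were equal. Lgals3 and Nectin4 had ratios of highest to lowest culture of 1.22 and 1.23, as large as that of Tnfrsf14, but fewer reads.

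**Figure D4:**
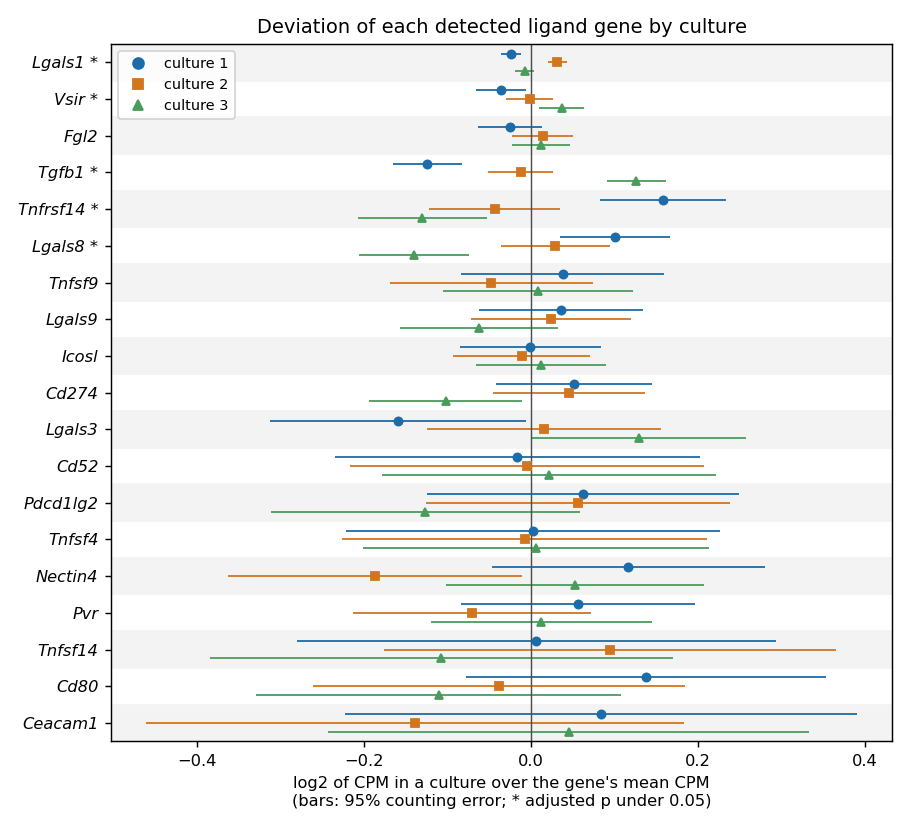
Log2 of the CPM in each culture over the gene's mean for the 19 detected ligand genes, with bars of 95% counting error; asterisks mark the 5 genes with an adjusted p under 0.05. Tgfb1 shows the 3 cultures apart, while the bars of Icosl, Tnfsf4 and Cd52 overlap 0 in every culture.

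The coefficient of variation over cultures had a median of 5.94% in the detected ligands and 4.48% in all detected genes. Beyond counting noise the medians were 1.95% and 3.04%, and 7 of the 19 ligands had no spread beyond counting noise, beside 27.3% of detected genes. The largest spread beyond counting noise was that of Tnfrsf14 (10.1%), followed by Nectin4 (9.08%), Lgals3 (8.66%) and Tgfb1 (8.62%).

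**Figure D5:**
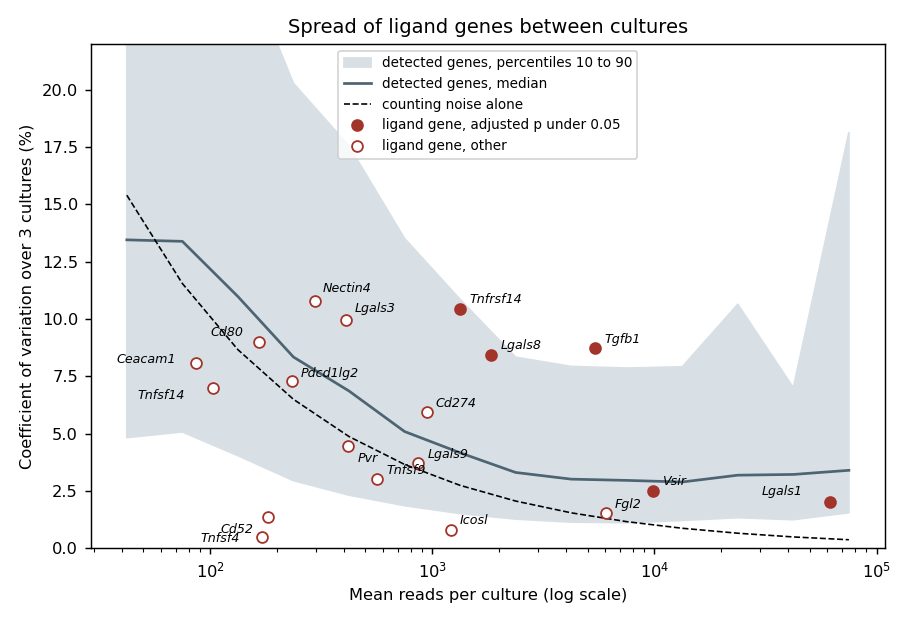
Coefficient of variation over the 3 cultures (%) against mean reads per culture (log axis) for the 19 detected ligand genes (circles; filled where the adjusted p is under 0.05). The grey band gives percentiles 10 to 90 of detected genes at each read level and the dashed line counting noise alone. Tgfb1 at 8.72% lies above the band, and Icosl at 0.804%, Tnfsf4 at 0.482% and Cd52 at 1.37% lie below it.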

How the data were processed

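Polyadenylated RNA of 3 cultures of 1 group was sequenced from strand-marked libraries. Per the labels and the series' design text, the authors aligned reads to GRCm38 with HISAT2 and counted them with an in-house program; the sources used here give no version, strand setting or annotation release. The deposited values are log2(reads per 10000000 + 1), a unit found from the values. Undoing the log gave whole reads for 100% of entries within a tolerance of 0.01.

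In the deposited table, the gene identifier and the symbol agree in 0 of the 23001 rows with reads. Cultures 1 and 2 follow the identifier and culture 3 the symbol and coordinates. Culture 3 was joined by exact coordinates in GENCODE M21 or, for 311 genes, by symbol, and 246 of its rows had no match. In genes over 100 reads the joined culture 3 differed from culture 1 by a median of 0.0841 (absolute log2), beside 0.0663 for culture 2. Read by the same row, culture 3 differed by a smaller median, 0.0783, so the medians do not favour the join. Over 2-fold apart from culture 1 were 0.157% of genes with culture 3 joined, 0.531% with it read by row and 0.0393% for culture 2, a count added after the data were seen. The authors' average column was not used. No test between conditions exists. Differences between cultures were tested for Poisson heterogeneity (chi-square) in genes with a mean of at least 10 reads (Benjamini-Hochberg, threshold 0.05, scipy 1.17.1). The test was also run on simulated Poisson reads, which cannot show how it behaves under further spread between libraries. Count packages were not used, since the deposited unit is log2. TPM used merged exon lengths of GENCODE M21.

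The genes and lists were chosen with earlier results of these data known. All listed ligands are named, with the 3 highest detected and up to 2 undetected genes of each companion list. Receptors of detected ligands, Cmtm6, Ceacam2 and the galectin genes outside the list were added after their values were seen, as were the pairs, ratios, promoters and motifs. Alternatives covered detection thresholds, scaling, length, read minimums, pseudocounts, rows as deposited and leaving out each culture. Intervals and limits cover counting error only.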

Additional observations from a re-analysis of the deposited data

How the results depend on the processing

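No paired analysis was possible because the samples form 1 group. The count of detected ligand genes stayed at 19 under median-of-ratios and trimmed-mean scaling, detection in any 1 culture and without any 1 culture. It also stayed at 19 with rows as deposited. Read that way, culture 3 lay a median of 0.0783 (absolute log2) from culture 1, so this check could change little. The count was 20 at a threshold of 0.5 CPM and 15 at 5 CPM (background 21.4% and 17.3%). The number that differed between cultures was 5 with no read minimum (background 17.0%), 6 with a minimum of 100 reads (40.2%) or median-of-ratios scaling (34.3%), with Lgals3 added, and 7 with trimmed means (34.5%), with Lgals3 and Fgl2 added, and ranged from 3 to 5 when each culture was left out, where the background ranged from 11.1% to 29.5%. With fewer libraries the test has less to compare.

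The median level of detected ligand genes was 26.5 TPM with the longest transcript, 16.4 CPM without length correction (39.7 CPM over all detected genes), 24.3 TPM at the threshold of 0.5 CPM, 41.0 TPM at 5 CPM, where fewer low genes enter, and 25.9 to 26.4 TPM without each culture. Their median coefficient of variation was 4.88% with trimmed means, 5.25% with median-of-ratios scaling and 3.52% to 4.24% without each culture. The mean CPM of each of the 19 genes moved by less than its SD under both scalings. It also did so without each culture, but leaving out a culture cannot move a mean by as much as its SD. That comparison could not come out otherwise and says nothing about how stable the means are. On the log2 scale a pseudocount of 0.1 moved 9 and one of 5 moved 14 of the 19 means by more than their SD, as its construction gives for low genes. Genes with few reads cannot show small differences at this depth.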

Other observations

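Relatives of the ligand genes outside the list were also read. Of 26 such genes, 7 were detected, beside 45.9% of protein-coding genes. Of these 7, 3 differed between cultures by the chi-square test, a share near the 37.1% of all detected genes. Lgals3bp, which encodes a galectin-binding glycoprotein, stood at 231, 234 and 236 CPM. Ltb, the lymphotoxin-β gene, stood at 49.4, 54.5 and 61.5 CPM, with culture 3 highest. Cd48, the CD2 ligand gene of mice and also the ligand of 2B4, stood at 44.6, 45.0 and 42.5 CPM, or 129 ± 4.74 TPM, which is 28.4 ± 2.05 times Cd80 per length. Btn2a2 had 1 read and Btnl2 had 3 reads over all cultures together. Lgals4, a galectin gene of the gut, and Tnf, an inflammatory cytokine gene, were chosen after their values were seen. Lgals4 stood at 2.996, 1.446 and 1.264 CPM and Tnf at 11.7, 8.97 and 7.07 CPM, both with culture 1 above both others. Culture 1 was the highest for 48.8% of all detected genes that differed. By the chi-square test over all genes the adjusted p was 9.0e-07 for Lgals4 and 2.5e-08 for Tnf, and it compares these libraries, not conditions.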
